A study of Mus musculus with 6 samples.

Results

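The 4 miRNAs described here are mmu-miR-720, mmu-miR-714, mmu-miR-1895 and mmu-miR-685_v14.0, of 611 mouse miRNAs on the array. They were picked by name, with earlier values of these arrays known, as entries of non-canonical annotation with lower signal with Activin. Their difference between the groups is therefore a description here and carries no test. Scaled signal measured lower with Activin in 3 of them, which is what they were picked for and is no check of the choice. Of these, miR-714 and miR-1895 were not detected on every Activin array. The 4th, miR-685, gave no level that could be compared. The RefSeq tables used (assembly GRCm38.p6) hold a gene and a sequence for 1 of the 4, miR-1895. By name, they hold a gene for 591 of the 611 mouse miRNAs on the array and for 49 of 58 named from miR-671 to miR-721. For the miRNAs of well-known families that serve as the comparison list, it was 80 of 80.

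The cells were EB3, a mouse embryonic stem cell line of 129/Ola strain background, and 1 line stands behind all 6 samples. Activin is a ligand of the TGF-β family that drives embryonic stem cells toward mesendoderm and endoderm. The Activin group, labelled ES Activin (+), was grown as embryoid bodies for the first days and then on gelatin, with 10 ng/ml Activin throughout, and was harvested on day 18. The control group is labelled ES Activin (-), and its samples carry day 18 too. The protocol text is the same for both groups. Beyond the day, the culture of the control cells, and whether they were differentiated at all, is therefore not stated. Each group had 3 samples, each on 1 Agilent 1-colour miRNA array, and nothing states that they came from separate cultures, so the spread between them may be technical. Total RNA came from whole cultures, where fewer cells of a type and less RNA per cell cannot be told apart.

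A canonical miRNA is cut from a hairpin transcript by the nuclease Drosha in the nucleus and by Dicer in the cytoplasm, and the short RNA that results guides an Argonaute protein to mRNAs through the bases of its seed. Early sequencing and computational surveys of mouse tissue also entered short RNAs of other origins into the miRNA catalogue, among them pieces of tRNA and rRNA. miR-720 is such a case: its sequence was later assigned to a tRNA and it was taken out of the miRNA catalogue. In embryonic stem cells the miR-290 to miR-295 cluster supplies much of the canonical miRNA, and it is the reference point for the likeness described further on.

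The mature sequence of miR-1895 is the only one among the 4 in the tables, and it is shown for its composition. It is printed with a canonical miRNA, miR-291a-3p. Among tested miRNAs other than the members, the profile of miR-291a-3p over the 6 arrays was nearest to those of miR-1895 and miR-714. Sequences are from RefSeq, read 5′ to 3′, with the seed (bases 2 to 8) in capitals.
mmu-miR-1895: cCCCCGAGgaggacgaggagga
mmu-miR-291a-3p: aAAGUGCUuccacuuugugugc
Both are 22 bases long. miR-1895 had a GC content of 72.7% and 0 U, and 3.29% of the 1674 distinct mature mouse miRNAs of the table reached that GC content, whose median was 52.2%. miR-291a-3p, with 45.5% GC, lies below that median. The motif GAGGA, picked after the sequence had been seen and read on the RNA strand alone, occurred 4 times in miR-1895 and at least once in 3.88% of the mature miRNAs. The seed CCCCGAG was found in 1 mature miRNA, miR-1895 itself, whereas the seed AAGUGCU belongs to the family that marks embryonic stem cells.

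The hairpin of miR-1895 shows how this purine-rich stretch continues into the flank, with the mature sequence in capitals.
mmu-miR-1895 hairpin: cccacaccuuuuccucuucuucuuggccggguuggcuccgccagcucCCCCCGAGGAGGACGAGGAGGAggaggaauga
It is 79 bases long, with the mature part at bases 48 to 69 and a GC content of 63.3%. It lies on chromosome 3, on the minus strand, inside the span of the protein-coding gene Cxxc4. Exons and introns of Cxxc4 were not used here. The predicted minimum free energy of the hairpin was -42.6 kcal/mol, or -0.54 kcal/mol per base, against a median of -0.44 for 70 hairpins of the family miRNAs, which spanned -0.61 to -0.30. By this prediction 66 of the 70 folded more weakly per base, so the miR-1895 hairpin stood among the strongest, within their range. The family hairpins were not matched to it in GC content, and the part of GC content in this rank was not tested.

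Array brightness differed before any scaling. An array's scaling value is the 75th percentile of the 59 probes that every array detected. It was 249 on control 1 and 177 on activin 2, and 427 to 616 on the other 4. These are called the dim and the bright arrays, and the dim ones averaged 0.39 of the bright ones. The dim arrays detected 80 and 54 mouse miRNAs and the bright ones 110 to 119. Both dim arrays lay in column 1 of the slide. Of the 611 miRNAs, 130 were detected on at least 1 array, 53 on all 6, and 79 entered the test because they were detected on all 3 arrays of a group. The number of arrays, 3 per group, limits the precision of every value below.

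miR-720, the tRNA-derived sequence, was the only one of the 4 detected on every array by the majority rule used here, under which over 0.5 of a probe's spots must be flagged well above background. Its unscaled intensity, the mean of 2 probes of 10 spots each, was 254, 950 and 541 on control arrays 1, 2 and 3, and 363, 136 and 387 on Activin arrays 1, 2 and 3. On this scale the dim control array lay among the Activin arrays, so the groups overlapped. Divided by the scaling value of its array and put on the log2 scale, the signal was 0.03, 0.63 and 0.34 in control and -0.65, -0.38 and -0.52 with Activin. Every control array then lay above every Activin array. The means were 0.33 ± 0.30 and -0.52 ± 0.13 (SD, n = 3 each), a log2 difference of -0.85, or 1.80-fold higher in control. This was the lowest log2 difference of the 79 tested miRNAs, whose median was 0.17, and relative to that median it was -1.01. With normexp background correction in place of the software's subtraction, the difference was -0.66 and lay -0.36 from the median.

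Both probes of miR-720 gave the same picture. Probe A_54_P2037 measured 436, 1590 and 906 in control and 611, 239 and 654 with Activin, with an SD over its spots of 25.5 to 60.7. Its scaled log2 difference was -0.83. Probe A_54_P2036 was detected on 5 arrays, with 0 of 10 spots well above background on activin 2, where its mean was 32.7, and its difference was -0.97. On all 6 arrays the intensity of the miRNA stood 16.9 to 172 SDs of single negative control spots above their mean, the distance being shortest on activin 2.

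**Figure D1:**
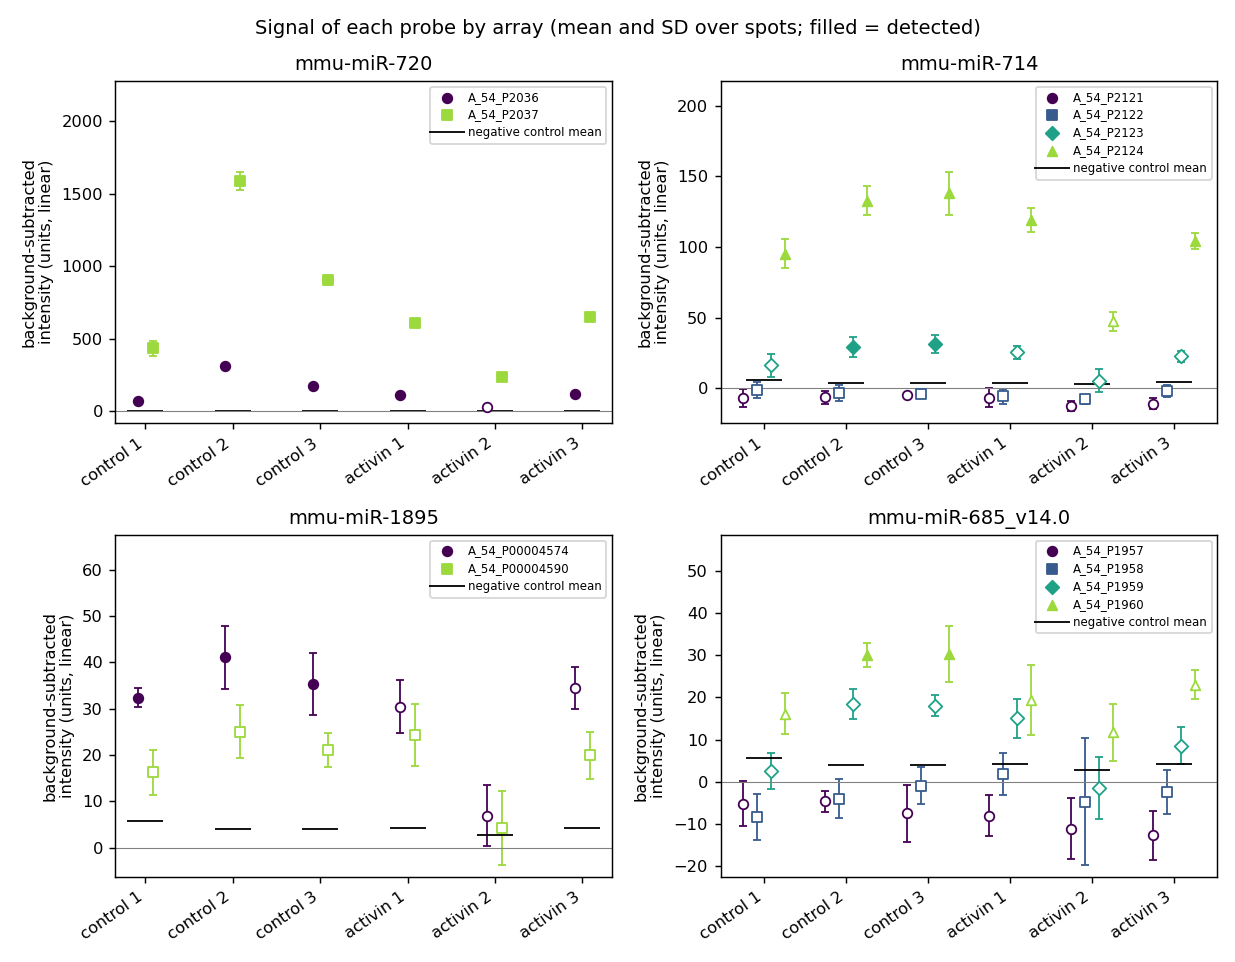
Background-subtracted intensity (linear units) of each probe of the 4 miRNAs on the 6 arrays, as the mean and SD over spots, with filled symbols where the probe was detected and a bar at the mean of the negative control spots. Both probes of miR-720 stand far above the negative controls, whereas 2 of 4 probes of miR-714 are below 0 on all arrays and both probes of miR-1895 come close to the bar on activin 2.

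miR-714 had 4 probes of 5 spots, and its signal came from 2 of them. The unscaled intensity was 25.9, 38.0 and 40.1 in control and 33.1, 8.11 and 28.6 with Activin. The groups overlapped, since control 1 was below both bright Activin arrays. Scaled, the log2 signal was -3.27, -4.02 and -3.41 in control and -4.11, -4.45 and -4.28 with Activin. These no longer overlapped, although control 2 lay close to activin 1. The means were -3.56 ± 0.40 and -4.28 ± 0.17 (SD, n = 3 each), with a measured log2 difference of -0.71. This difference includes activin 2, where miR-714 was not detected, so no fold is given. Between the bright arrays alone the difference was -0.48. By the majority rule, all 3 control arrays detected it, as did 2 of 3 Activin arrays, activin 2 being the exception, while the scanner software's own call per miRNA was positive on all 6. The lowest signal detected on activin 2, at -3.23 scaled, lay above the miR-714 value of control 1, so that array leaves the order of the pair unsettled.

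The probes of miR-714 disagreed about whether there was signal at all. Probe A_54_P2124 measured 95.3, 133 and 138 in control and 119, 47.3 and 104 with Activin, was detected on 5 arrays, and differed by -0.45. Probe A_54_P2123 ranged from 5.28 to 31.3, was detected on control 2 and control 3, each by 3 of 5 spots, and differed by -0.64. Probes A_54_P2122 and A_54_P2121 were below 0 on all 6 arrays, from -7.73 to -1.06 and from -12.5 to -4.97, and were detected on none. Averaged over the 4 probes, the intensity stood 0.67 SDs of negative control spots above their mean on activin 2 and 3.50 to 6.28 SDs above it on the other 5 arrays.

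miR-1895, the GC-rich sequence printed above, was detected by all 3 control arrays and by 0 of 3 Activin arrays. Its unscaled intensity was 24.3, 33.1 and 28.2 in control and 27.4, 5.59 and 27.2 with Activin. The 2 bright Activin arrays lay inside the control range, and only activin 2 stood apart. Scaled, the log2 signal was -3.35, -4.22 and -3.92 in control and -4.38, -4.94 and -4.35 with Activin, where -4.94 is the floor below which no level was read. The measured values did not overlap, with the same limit for activin 2 as for miR-714. The means were -3.83 ± 0.44 and -4.56 ± 0.33 (SD, n = 3 each), with a measured log2 difference of -0.73. Because no Activin array passed the majority rule, the fold between the means is given as a bound, at least 1.11-fold higher in control. This bound takes activin 1 and activin 3 at their measured values and does not cover the spread between arrays.

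The detection of miR-1895 turned on 1 of its 2 probes and on few spots. Probe A_54_P00004574 had 8 of 8, 10 of 10 and 6 of 10 spots well above background in control, against 4, 0 and 3 of 10 with Activin. Its intensities were 32.4, 41.1 and 35.3 in control and 30.4, 6.89 and 34.4 with Activin, so activin 3, not detected, lay between 2 detected control arrays. Probe A_54_P00004590 ranged from 4.30 to 25.0 and was detected on no array. The mean of the probes stood 0.355 SDs of negative control spots above their mean on activin 2 and 3.23 to 5.27 SDs above it on the other 5 arrays. On activin 1 and activin 3 it stood 4.07 and 3.68 SDs above, more than on control 1, which passed the majority rule. The software's call per miRNA was positive on 5 arrays, all but activin 2. A spot of A_54_P00004590 on control 3 with an intensity of 6814 carried an outlier flag and was left out. It was 1 of 4 flagged spots of miR-1895, and with all flagged spots of the arrays kept the log2 difference was -1.84.

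miR-685_v14.0 was at the edge of detection. Its mean over 4 probes of 5 spots was 1.33, 9.99 and 10.0 in control and 7.08, -1.37 and 4.14 with Activin. All 6 values were at or below the floor once scaled, so no difference and no fold is given, and it did not enter the test. It counted as detected on control 2 and control 3 through probe A_54_P1960 alone, by 3 of 4 and 3 of 5 spots. That probe measured 16.1, 30.1 and 30.4 in control and 19.4, 11.8 and 23.0 with Activin, and control 1 lay below both bright Activin arrays. When every spot of a probe had to be well above background, miR-685 was detected on 0 arrays. Its intensity stood -0.75 to 1.07 SDs of negative control spots from their mean.

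Among the 79 tested miRNAs, limma with Benjamini-Hochberg adjustment called 0 lower with Activin (0%), with 5 lower at an unadjusted p under 0.05, and 1 in either direction (1.27%), which was miR-302c and none of the 4. Groups that did not overlap, with control higher, were found for 5 of 79 (6.33%), and 3 of these were miR-720, miR-714 and miR-1895. The other 2 were miR-10a and miR-291a-3p. miR-714 and miR-1895 entered the 79 through detection in control alone, and neither was detected on activin 2. The members were also picked on this contrast, so nothing is read from their share. On the 4 bright arrays alone the same 3 miRNAs did not overlap, where 24.1% of the 79 did so, and without scaling 0 of the 3 were separate, against 1.27% of the 79.

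**Figure D2:**
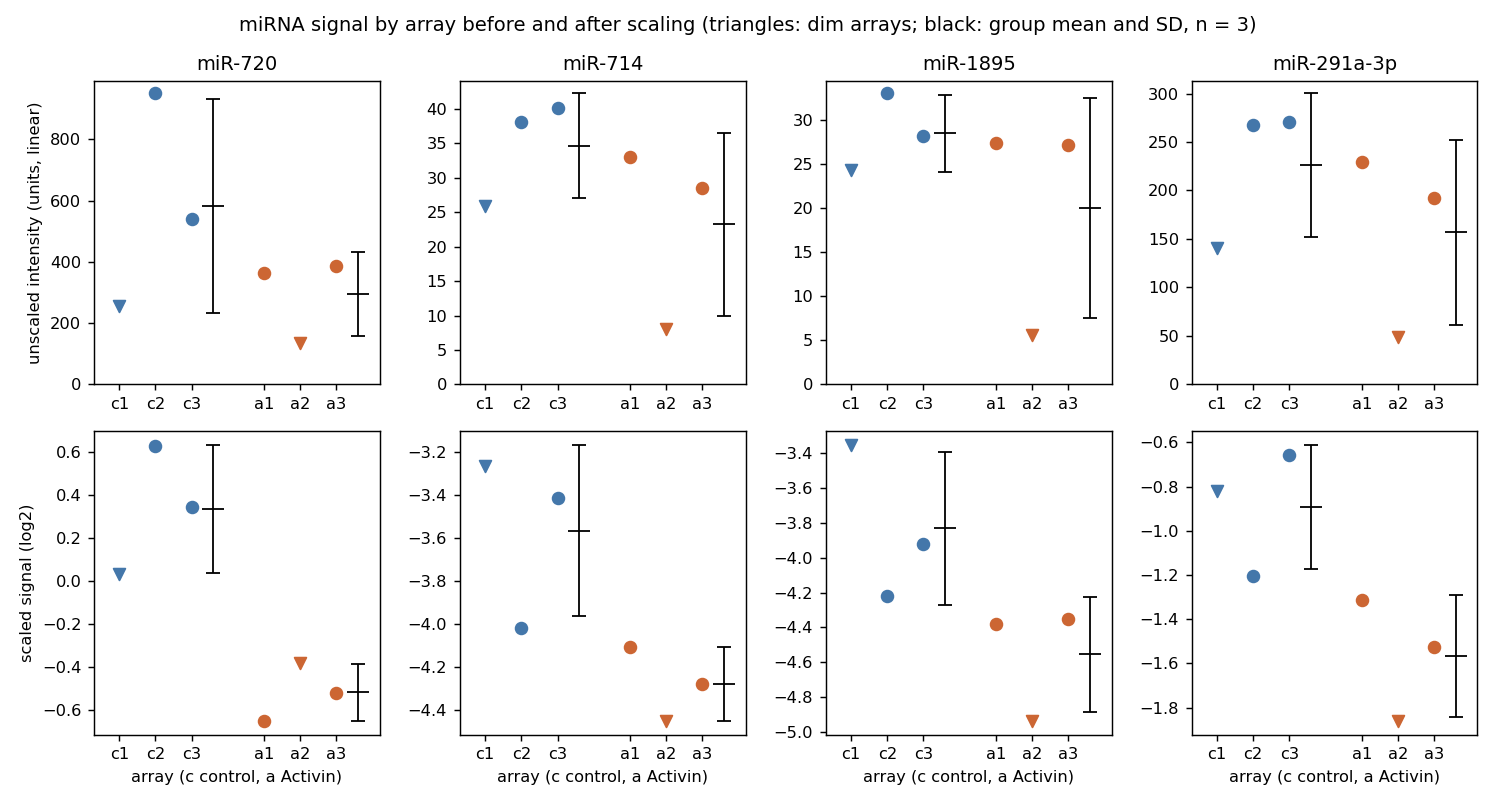
Unscaled intensity (upper row, linear units) and scaled log2 signal (lower row) of miR-720, miR-714, miR-1895 and miR-291a-3p on control arrays c1 to c3 and Activin arrays a1 to a3, with triangles for the dim arrays and the group mean and SD (n = 3) in black. In the upper row the groups overlap for all 4 miRNAs, and in the lower row they do not.

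The size of the difference varied with the arrays compared. Between the bright arrays, miR-720 had a log2 difference of -1.07, miR-714 one of -0.48 and miR-1895 one of -0.30. Between the dim arrays, which are also the pair in slide column 1, it was -0.41 for miR-720. The measured values there were -1.19 for miR-714 and -1.58 for miR-1895, but neither was detected on activin 2 and the lowest detected signal of that array lay above both control 1 values, so no fold is given. The pair in slide column 2, control 2 and activin 3, gave -1.15, -0.26 and -0.13. Within slide row 1, which held 3 control arrays and activin 1, they were -0.98, -0.54 and -0.55. The measured difference was below 0 in each of these subsets for each of the 3 miRNAs. On the unscaled bright arrays the values were -0.94 for miR-720, -0.35 for miR-714 and -0.16 for miR-1895. The part of array brightness in the differences of miR-714 and miR-1895 was not tested.

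How a signal follows the brightness of the arrays did not enter the choice of the 4 miRNAs, although it is read from the same signals. The scaling value was 1.35 higher on the bright than on the dim arrays on the log2 scale, 1.04 within control and 1.66 within Activin. For 34 family miRNAs detected on all arrays, the unscaled signal was higher on the bright arrays by a median of 1.52, from 0.29 to 2.63. miR-720 was higher by 1.48, with 1.49 within control and 1.46 within Activin. It sat near the middle of the family miRNAs, above 14 of 34 over all arrays, 16 within control and 15 within Activin.

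For miR-714 and miR-1895 only the control arrays allow this comparison, because neither was detected on activin 2. Within control, miR-714 was 0.59 higher on the bright arrays and miR-1895 0.33 higher, and each lay above 2 of the 34 family miRNAs. These values rest on 1 dim array. Within Activin, the measured values were 1.92 and 2.29, taken against signals near the negative controls. Against the lowest signal detected on activin 2, which was 18.9, the difference was at least 0.70 for miR-714 and at least 0.53 for miR-1895. The values over both groups, 1.26 and 1.31, include that array and are read no further.

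**Figure D3:**
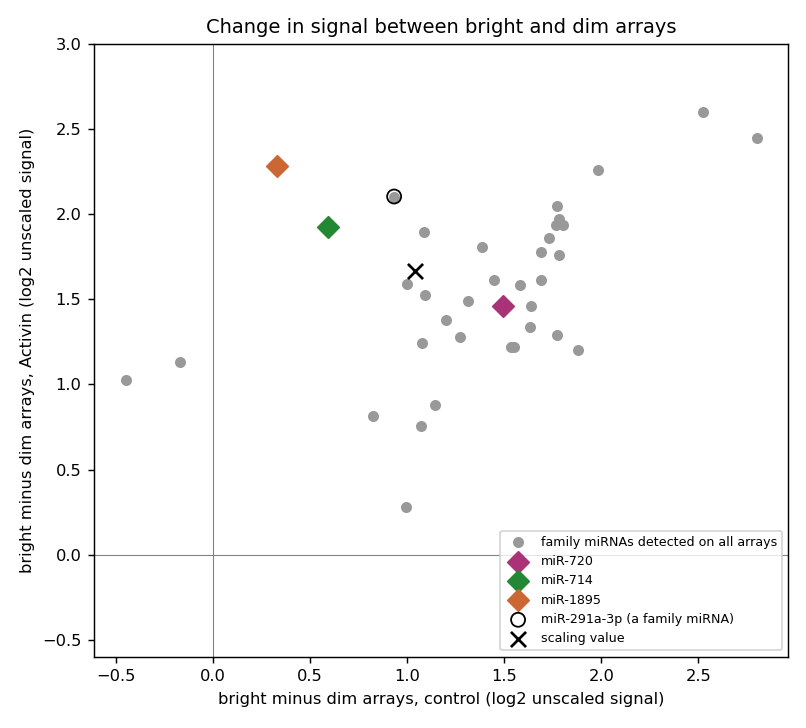
Log2 difference of unscaled signal between bright and dim arrays within control (horizontal axis) and within Activin (vertical axis) for 34 family miRNAs detected on all arrays, for miR-720, miR-714 and miR-1895, and for the scaling value. miR-720 (1.49 and 1.46) lies among the family miRNAs. miR-714 (0.59 and 1.92) and miR-1895 (0.33 and 2.29) lie within the family range on each axis taken alone. Their vertical values are taken against activin 2, where neither was detected. The 2 family miRNAs with lower control values, miR-292-3p and miR-293, were at 1.03 and 1.13 on the vertical axis.

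Without background subtraction, the median signal of a spot includes the local background of the array. On that scale miR-720 was 1.00 higher on the bright arrays, above 27 of the 34 family miRNAs, whose median was 0.62 and whose range was 0.08 to 1.45. miR-714 was 0.14 higher and miR-1895 0.10 higher, each above 1 of the 34. The 481 miRNAs detected on no array had a median of -0.02, from -0.09 to 0.12. miR-1895 thus fell inside the range of the undetected miRNAs and miR-714 just outside it, at the low end of the family miRNAs. Among the 34 family miRNAs, all detected on every array, miR-200c was nearest to both in signal on the bright arrays. It was 0.08 higher on this scale, also inside the range of the undetected miRNAs. Of family miRNAs detected on fewer arrays, miR-93, miR-16 and miR-34c lay nearer to miR-714, and miR-34b-5p to miR-1895. These were 0.25, 0.22, 0.16 and 0.15 higher, above the range of the undetected miRNAs. On the subtracted scale miR-200c was higher by 0.64, with 0.99 within control and 0.28 within Activin. The next nearest of the 34, miR-23a and miR-99a, were higher by 1.58 and 1.28 but were brighter than miR-714 and miR-1895. Their mean log2 signal on the bright arrays was 6.13 each, against 5.11 for miR-714 and 4.85 for miR-1895. Those nearest to miR-720, miR-20a, miR-322 and miR-20b, were higher by 1.73, 2.63 and 1.30.

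Likeness of pattern was measured as the root mean square distance between scaled log2 profiles over the 6 arrays, each centred on its own mean. Only tested miRNAs other than the members were searched, so the likeness of the members to each other is not included. The profile nearest to miR-720 was that of miR-10a, a Hox cluster miRNA, at 0.20, followed by miR-100 at 0.30 and let-7d at 0.32, with a median distance of 0.59 to the tested miRNAs. For miR-714 the nearest was miR-291a-3p at 0.13, then miR-294 at 0.24 and miR-295 at 0.30, with a median of 0.60. For miR-1895 they were the same 3 miRNAs at 0.23, 0.36 and 0.39, with a median of 0.67. All 3 belong to the miR-290 to miR-295 cluster. These distances describe 6 arrays that share 1 scaling. They include the difference between the groups for which the members were picked, so a near profile partly restates it. miR-10a and miR-291a-3p were also the other miRNAs whose groups did not overlap. For miR-714 and miR-1895 the distances include activin 2, where neither was detected and miR-1895 was set to the floor. Nothing further is read from the likeness.

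miR-291a-3p was detected on all 6 arrays, which miR-714 and miR-1895 were not. Its scaled log2 signal was -0.82, -1.20 and -0.66 in control and -1.32, -1.86 and -1.53 with Activin, a difference of -0.67. It was higher on the bright arrays by 1.52 over both groups, by 0.93 within control and by 2.10 within Activin. A smaller difference within control than within Activin was common: it was found for 5 of 5 tested miRNAs of the miR-290 to miR-295 cluster, for 21 of the 34 family miRNAs and for 50 of the 76 tested miRNAs other than the members, as for the scaling value. Of the 16 ES cell and epiblast markers, 10 were detected on some array and 6 were tested, with 5 of the 6 below 0 and a median log2 difference of -0.40. The 5 are of the miR-290 to miR-295 cluster, and the 6th is miR-302c, an epiblast miRNA, at 1.23. Their summed intensity was 3569 to 4005 in control and 1372 to 3421 with Activin, on the unscaled signal. Of 6 mesenchymal markers, 4 were tested, 0 were below 0 and the median was 0.32. Blood and liver or islet markers were detected on no array (0 of 6 and 0 of 5), and neural and striated muscle lists had 1 of 4 each. Epithelial markers had 3 of 5. The part of the cells' state in the values of the 4 miRNAs was not tested.

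Of all 611 miRNAs, 21.3% were detected on some array, and the neighbours of the 4 names in the catalogue can be read against that share. Of 58 miRNAs named from miR-671 to miR-721, 6 (10.3%) were detected on some array and 4 were tested, 2 of these being miR-714 and miR-720. The other 2, miR-689 and miR-709, were detected on all 6 arrays, with log2 differences of -0.39 and 0.03, and were higher on the bright arrays by 0.89 and 1.06. miR-674* was detected on 4 arrays, 2 in each group, and miR-685 on 2. Of 18 named from miR-1892 to miR-1971, miR-1895 was detected on 3 arrays, miR-1897-5p on 1 control array, and the other 16 on none, which makes 11.1% detected. Of 9 names that carry a version tag, like miR-685_v14.0, 2 were detected (22.2%), miR-685 and miR-689. In the family list 63 of 80 were detected and 47 were tested, with 22 below 0 and a median log2 difference of 0.04.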

How the data were processed

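The deposited scanner files hold linear spot intensities. Per the file headers they come from Feature Extraction 10.7.3.1, while the submitters' processing notes name 10.1.1. The authors' background-subtracted signal was used, and the deposited value table of the series holds the same numbers. Spots with an outlier flag were left out, then spots of a probe and probes of a miRNA were averaged on the linear scale. Each array was divided by its 75th percentile over the 59 probes that every array detected. Values were set to at least a floor of 0.0326, the median over arrays of the 1st percentile of detected miRNAs, and put on the log2 scale. A probe was detected where over 0.5 of its spots were flagged well above background, and a miRNA where 1 of its probes was. No spot was saturated (0). A fold against a group not above background is a bound, taken against whichever is highest on each array: the miRNA itself, the floor or the lowest signal that was detected. limma 3.58.1 in R 4.3.3, with a threshold of 0.05, was fitted to all 79 tested miRNAs and was tested on simulated data. The simulation had less spread than the control arrays and larger changes than those described here. It therefore does not show how well changes of the size seen here are found. An array was dim below 0.6 of the median scaling value. Hairpins were folded with ViennaRNA 2.7.2.

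The members, the gene lists and the comparison list were chosen with earlier results of these data known. Besides the members, the 3 nearest profiles among the other tested miRNAs and the detected miRNAs of the number lists are named. So are the 3 family miRNAs nearest in signal on the bright arrays, of those detected on all arrays. Those nearer than miR-200c but detected on fewer arrays are named too. The file headers give mm9 for the design, so no RefSeq coordinates are given. The equal replicate numbers of the groups were not taken as pairs in the main fit.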

Additional observations from a re-analysis of the deposited data

How the results depend on the processing

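The log2 difference between Activin and control stayed below 0 for miR-720, miR-714 and miR-1895 in every setting run. For miR-720 it was -1.08 without activin 2 and ranged from -1.08 to -0.70 over leaving out 1 array each. The value of miR-720 nearest to 0 was -0.66, with normexp, which lay -0.36 from the median of that setting. For miR-714 it was -1.02 with quantile scaling, -0.27 with the mean of log2 values over probes and -0.40 with the floor raised to 2 times its value. For miR-1895 it was -0.34 without scaling, -1.84 with all spots kept, -0.20 with the raised floor and -0.27 without the dim arrays. The cause was not tested. Leaving out 1 array each gave -0.94 to -0.56 for miR-714 and -0.92 to -0.48 for miR-1895.

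The separation of the groups was less steady. It held for miR-720, miR-714 and miR-1895 in 7 of the 12 scaling, background and summary alternatives. These 7 include the deposited values of the series, which equal the scanner signal used here on every array and repeat the main result. They also include the setting with all spots kept, in which miR-1895 on control 3 takes in the flagged spot of 6814. With the 75th percentile of all probes the separation held for miR-714 and miR-1895 alone. With the brightest probe, the raised floor or normexp it held for miR-720 alone, and without scaling for none.

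The difference between bright and dim arrays was 0.84 with normexp, 0.14 without background subtraction, 0.87 with the brightest probe and 1.56 with the negative control mean subtracted for miR-714, and 0.83, 0.10 and 1.78 under the first, second and last of these for miR-1895. The mean of log2 values over probes could give none for miR-714. miR-1895 was detected on 5 arrays by the software's call and miR-685 on 0 when all spots had to pass.

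limma called 1 of 79 miRNAs. It called 0 with the 75th percentile of all probes, quantile scaling, no scaling, the mean of log2 values, the brightest probe, all spots kept, the raised floor, normexp, the software's total signal, no filter (611 tested), the slide row as a block, or without the dim arrays (115 tested), with 0 to 13 at an unadjusted p under 0.05. It called 2, miR-302c and miR-720, with brightness as a block, and 0 to 1 on leaving out 1 array each. With the median of the detected probes, miR-720 took the place of miR-302c. The replicate block kept 1 call and left the members' differences as they were. Same-numbered arrays had deviations correlated at -0.64, -0.09 and 0.34. The dim arrays, control 1 and activin 2, correlated at 0.55. With 3 arrays per group that differ in brightness, such correlations cannot settle whether the numbers pair the arrays. Alternatives that used the median signal, the software's total, the negative control mean, the slide row or the bright arrays alone were chosen after seeing the data. The files used here have no mean-signal column, so normexp ran on median signals. The median of the 79 differences was 0.17 with the main scaling, 0.01 to 0.04 with the other scalings and 0.09 without scaling. With normexp it was -0.31.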

Other observations

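On the dim arrays the negative control spots did not follow the scaling value. Their mean was 5.66 on control 1, the dim control array, and 2.81 on activin 2, the dim Activin array, against 4.02 to 4.19 on the 4 bright arrays. The median coefficient of variation over the spots of a probe was 17.6% and 15.8% on the dim arrays and 6.88% to 9.59% on the bright ones. With the negative control mean of each array subtracted, the log2 differences of miR-720, miR-714 and miR-1895 were -0.86, -0.84 and -0.77.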
